A study of Mus musculus with 4 samples.

Results

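The centromere-proximal ends of the 19 mouse autosomes were described as fixed 1 kb windows in the first 1 Mb after the lowest position listed in the CpG files for each chromosome, keeping windows with at least 5 listed CpGs. The position and the number of CpGs chose the windows, and no methylation value did. Of 1223928 such windows on all listed chromosomes, 8812 lay in these ends, and they held 82603 CpGs, a mean of 9.37 per window. The lowest listed position (mm9) ran from 3000031 on chromosome 9 to 3078947 on chromosome 19. The centromere itself lies below it and has no listed CpG, so the windows cover the assembled sequence next to the centromere.

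Mouse E14Tg2a embryonic stem (ES) cells were studied in wild-type form (WT) and after loss of all 3 Tet genes, Tet1 to Tet3 (TetTKO). For either genotype there was 1 library of whole-genome bisulfite sequencing (WGBS) and 1 of RNA-seq. The knockout was made by transient CRISPR transfection with px330 vectors carrying guides to the 3 genes, and mutant clones were picked, per the labels' protocols. The same protocols state that hydroxymethylcytosine was not detected in TetTKO DNA. The WT cells were unmodified E14 cells, both lines had been kept in 2i medium, and both were then grown on gelatin in 15% serum with LIF at 1000 units/ml, for 17 days or longer. How many clones the TetTKO libraries represent is not given in the sources used here. There were no replicates of a genotype, so no difference below has a test against the spread between cultures, and every SD over windows or chromosomes measures evenness along the genome.

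Mouse autosomes carry their centromere at one end, flanked by satellite repeats packed as heterochromatin that is heavily methylated in most cells. DNA methyltransferases Dnmt3a and Dnmt3b set 5-methylcytosine, Dnmt1 copies it at replication, and Tet enzymes oxidise it, which can lead to its removal. Bisulfite sequencing reads 5-methylcytosine and 5-hydroxymethylcytosine alike, so a level below is the sum of both.

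The unique sequence of these ends holds CpG-rich promoters as well as repeats, and 5 promoters show the range of behaviour found there. Each is the 250 bases before the RefSeq gene start (GRCm38.p6), written 5′ to 3′ on the strand of the gene, with CpGs in capitals. Tfpi2 (chr6:3968376-3968625, minus strand) had the largest gain of methylation in TetTKO among the promoters that could be matched to listed CpGs, Tcirg1 (chr19:3907134-3907383, minus strand) the largest gain among those under 10% in WT, and Mefv (chr16:3718125-3718374, minus strand) the largest loss. Rps9 (chr7:3703791-3704040, plus strand) and D7Ertd143e (chr7:3218534-3218783, plus strand) belong to abundant transcripts and were unmethylated in both libraries.
Tfpi2: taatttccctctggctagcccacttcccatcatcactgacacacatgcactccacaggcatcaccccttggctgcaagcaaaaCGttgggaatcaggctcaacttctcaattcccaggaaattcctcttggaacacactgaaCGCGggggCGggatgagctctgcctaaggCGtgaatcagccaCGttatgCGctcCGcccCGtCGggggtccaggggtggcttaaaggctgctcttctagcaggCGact
Tcirg1: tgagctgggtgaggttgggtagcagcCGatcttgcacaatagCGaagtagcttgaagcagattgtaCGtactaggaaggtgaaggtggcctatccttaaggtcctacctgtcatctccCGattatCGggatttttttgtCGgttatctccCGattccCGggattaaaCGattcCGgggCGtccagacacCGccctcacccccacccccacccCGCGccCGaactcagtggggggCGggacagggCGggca
Mefv: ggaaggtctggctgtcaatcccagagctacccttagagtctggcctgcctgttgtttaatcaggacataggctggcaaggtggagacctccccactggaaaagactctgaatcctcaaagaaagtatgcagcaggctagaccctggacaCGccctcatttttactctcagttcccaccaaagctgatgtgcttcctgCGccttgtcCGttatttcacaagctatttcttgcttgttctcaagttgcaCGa
Rps9: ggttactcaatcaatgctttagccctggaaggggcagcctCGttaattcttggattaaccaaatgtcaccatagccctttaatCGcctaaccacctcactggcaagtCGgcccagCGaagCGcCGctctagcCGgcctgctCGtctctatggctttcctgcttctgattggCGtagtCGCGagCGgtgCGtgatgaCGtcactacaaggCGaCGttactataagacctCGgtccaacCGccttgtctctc
D7Ertd143e: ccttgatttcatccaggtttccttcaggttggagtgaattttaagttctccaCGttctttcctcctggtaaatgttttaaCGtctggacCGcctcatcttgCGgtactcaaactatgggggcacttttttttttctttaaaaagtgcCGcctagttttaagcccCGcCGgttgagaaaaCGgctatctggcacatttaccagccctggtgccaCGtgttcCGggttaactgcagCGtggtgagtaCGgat
The 5 stretches hold 11, 17, 4, 18 and 12 CpGs in that order. The median over 25748 RefSeq promoters of the autosomes was 6 CpGs in 250 bases.

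D7Ertd143e was shown because it lies at the miR-290 cluster, the microRNAs most typical of mouse ES cells. The mature miR-290a-3p lies within the printed stretch, with its first base 110 bases before the RefSeq gene start, and the other 3 lie downstream of that start on the same strand. The seed, bases 2 to 8, is in capitals.
mmu-miR-290a-3p: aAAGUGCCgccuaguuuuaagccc
mmu-miR-291a-3p: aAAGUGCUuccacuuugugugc
mmu-miR-294-3p: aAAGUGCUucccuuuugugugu
mmu-miR-295-3p: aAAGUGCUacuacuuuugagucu
The last 3 share the seed AAGUGCU, and miR-290a-3p has AAGUGCC. Levels of the mature microRNAs were not measured in these libraries.

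The centromere-proximal windows were highly methylated in both genotypes and lower in TetTKO. The mean over windows was 73.6% in WT (SD 19.6 over 8812 windows) and 68.2% in TetTKO (SD 16.3), a difference of -5.40 percentage points (SD 10.5 over windows, 1.41 over the 19 chromosome means). TetTKO was lower in 72.8% of the windows. Windows above 80% methylation made up 47.6% of the set in WT and 17.2% in TetTKO, while windows under 10% made up 3.15% and 2.32%. Both the highly methylated and the unmethylated ends of the distribution were therefore thinner in TetTKO. The same held in the rest of the autosomes, where 72.4% of the windows were lower in TetTKO. There, windows above 80% made up 49.5% in WT and 18.99% in TetTKO, and those under 10% made up 2.57% and 1.74%. The thinning was thus not particular to the centromere-proximal ends.

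With every window weighted equally, the rest of the autosomes had nearly the same means. Its 1209087 windows had means of 74.2% and 69.1%, a difference of -5.16 points. Weighted to the CpG numbers of the centromere-proximal windows, the rest differed by -5.33 points. The neighbouring stretch from 1 to 2 Mb (9240 windows) had 72.8% and 67.8%, and the last 1 Mb of the same chromosomes (7607 windows) had 70.7% and 65.4%. As a mean over chromosomes, the centromere-proximal difference minus that of the rest was -0.362 points (SD 1.35), and 9 of 19 chromosomes had a larger loss near the centromere than elsewhere. The loss near centromeres therefore differed from that of the rest by less than the spread between chromosomes.

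Pooled over reads rather than windows, 74.4% of 1973040 WT read calls were methylated (exact Clopper-Pearson 95% interval 74.31 to 74.43%) and 68.3% of 2178764 in TetTKO (68.25 to 68.38%). Pooled reads of the rest gave 67.9% and 64.3%, so with this weight the difference minus that of the rest was -2.36 points and the WT level was 6.42 points above that of the rest. These intervals cover counting error only, and a read that spans several CpGs enters once per CpG. The median window had 9 reads per CpG in WT and 10.4 in TetTKO, close to the 8.82 and 10.1 of the rest. The means were 23.9 and 26.4 reads per CpG, because a few windows were very deep.

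All 19 chromosomes had a lower centromere-proximal mean in TetTKO. Chromosome 9 differed by -7.59 points (79.0% to 71.5%, 368 windows), chromosome 10 by -7.22 (77.4% to 70.2%, 410 windows) and chromosome 15 by -6.96 (77.2% to 70.2%, 393 windows). The smallest differences were -3.14 points on chromosome 7 (61.3% to 58.1%, 484 windows), -3.40 on chromosome 8 (64.0% to 60.6%, 479 windows) and -3.72 on chromosome 11 (68.5% to 64.7%, 811 windows). The chromosomes that were least methylated in WT were thus also those that lost least. The WT level was highest on chromosomes 18 (79.2%), 9 and 3 (78.6%).

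**Figure D1:**
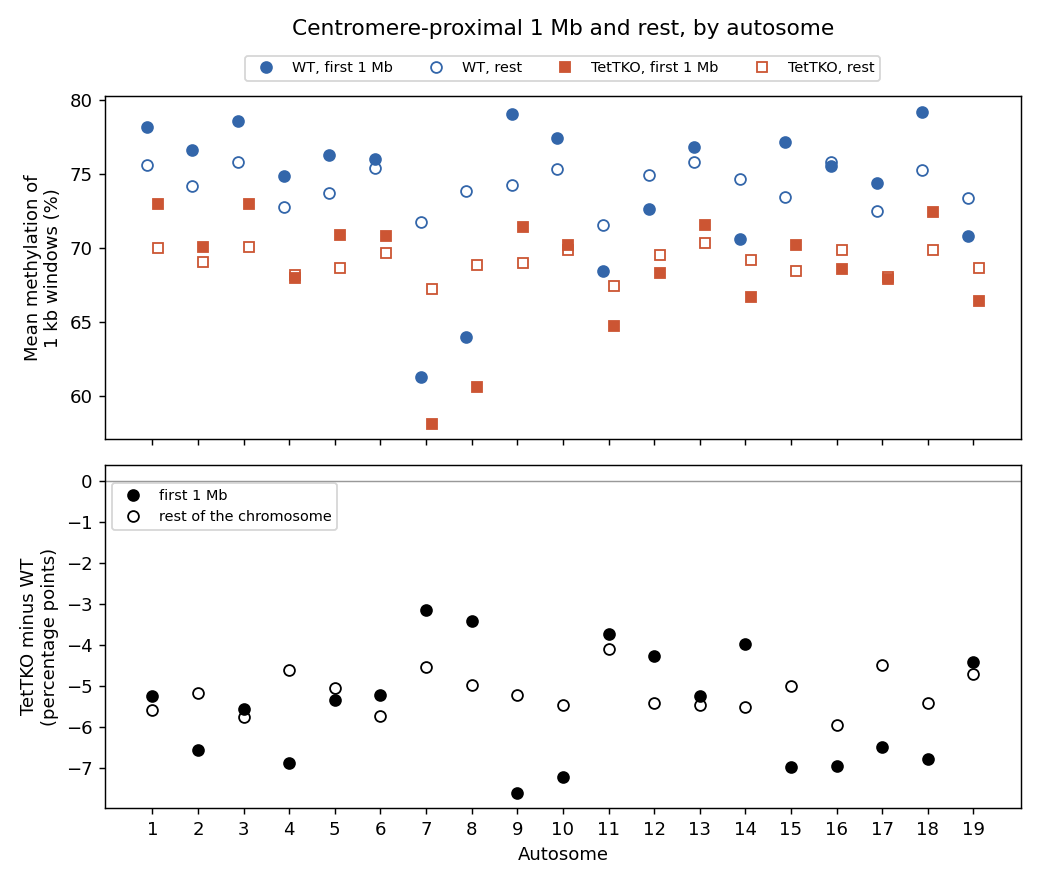
Mean methylation of 1 kb windows in percent (top) and the difference TetTKO minus WT in percentage points (bottom) for each autosome; filled symbols are the first 1 Mb, open symbols the rest of the same chromosome, 1 library per genotype. Chromosomes 7 and 8 stand below their own rest in both genotypes, and every difference is below 0.

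The WT level of the first 1 Mb was above that of the rest of its chromosome on 12 of 19 chromosomes. It was farthest below on chromosomes 7 and 8. Chromosome 7 lay 10.5 points below its rest in WT and 9.14 below in TetTKO, and chromosome 8 lay 9.86 and 8.28 points below. Together these ends had 62.6% in WT and 59.4% in TetTKO over 963 windows, against 74.9% and 69.2% over the 7849 windows of the other 17 chromosomes. The mean excess over the rest was -0.122 points in WT (SD 4.33 over chromosomes). Chromosome 14 gave only 16 windows, of 61 with any listed CpG, and its values rest on few CpGs. Chromosome 6 had 11.6 reads per CpG in the median window in WT and 10.1 in TetTKO, whereas on every other chromosome the median window was deeper in TetTKO. Without chromosome 6 the difference was -5.42 points.

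Among the 100 kb steps of all 19 chromosomes, the WT level was highest in the first. The first 100 kb (697 windows) stood at 77.4% in WT and 71.2% in TetTKO, which was -6.19 points apart (SD 3.11 over 19 chromosomes). It then declined to 70.6% and 66.5% at 300 to 400 kb, where the difference was -4.09 points (SD 2.74 over 18 chromosomes). Without chromosomes 7 and 8 the first step, at 76.9%, was close to the 76.8% of 600 to 700 kb and the 77.0% of 1200 to 1300 kb, so it no longer stood out. From 500 kb to 1 Mb the WT level lay between 72.3% and 75.1%, and the difference between -5.20 and -6.18 points. Beyond 1 Mb the level went as low as 69.9% and the difference as far up as -3.83 points, both at 1900 to 2000 kb. At the boundary of the set, the last step inside (900 to 1000 kb) had -5.90 points and the first step outside (1000 to 1100 kb) had -5.32. These steps differ by less than the SD over chromosomes within each.

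**Figure D2:**
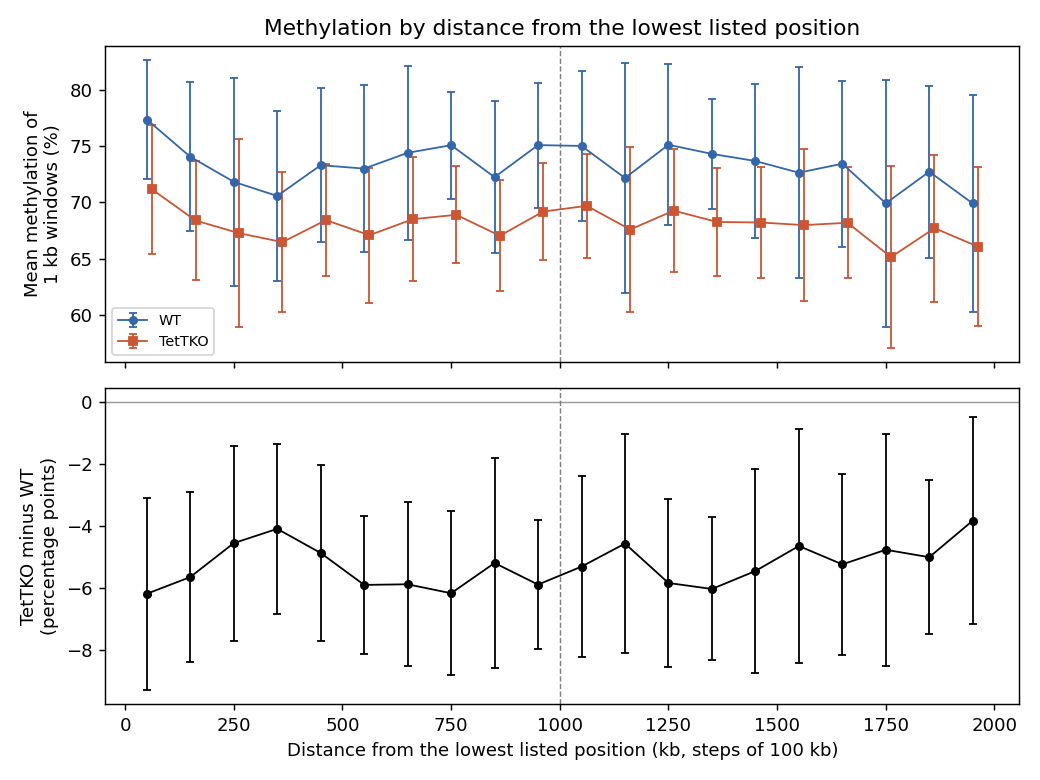
Mean methylation of 1 kb windows in percent (top) and TetTKO minus WT in percentage points (bottom) by distance in 100 kb steps; error bars are SDs over chromosomes with at least 5 windows in the step, and the dashed line marks the 1 Mb limit. WT falls from 77.4% in the first step to 70.6% at 300 to 400 kb, and the bars of neighbouring steps overlap.

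The dip at 300 to 400 kb was shallower without chromosomes 7 and 8. Without them the WT mean of that step was 73.2% and its difference -4.91 points. On chromosome 7 the first 100 kb had 84.3% in WT, the step at 200 to 300 kb had 44.2% and the step at 300 to 400 kb had 48.4%. The level was back at 75.6% at 800 to 900 kb. Chromosome 8 had a trough of 51.8% at 500 to 600 kb between 75.8% in the first step and 76.7% in the last. TetTKO had the same troughs, with 42.7% and 51.3% in those steps of chromosome 7 and 52.2% on chromosome 8.

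Of 180 bins of 100 kb with at least 5 windows, 175 were lower in TetTKO. The 5 that were higher were small in size: chromosome 7 at 300 to 400 kb by 2.98 points, chromosome 11 at 200 to 300 kb by 0.993, chromosome 8 at 500 to 600 kb by 0.465 and at 400 to 500 kb by 0.212, and chromosome 1 at 100 to 200 kb by 0.392. The 14 bins under 65% in WT included 10 on chromosomes 7 and 8. The deepest loss, -16.65 points in the first 100 kb of chromosome 16, rests on 5 windows.

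**Figure D3:**
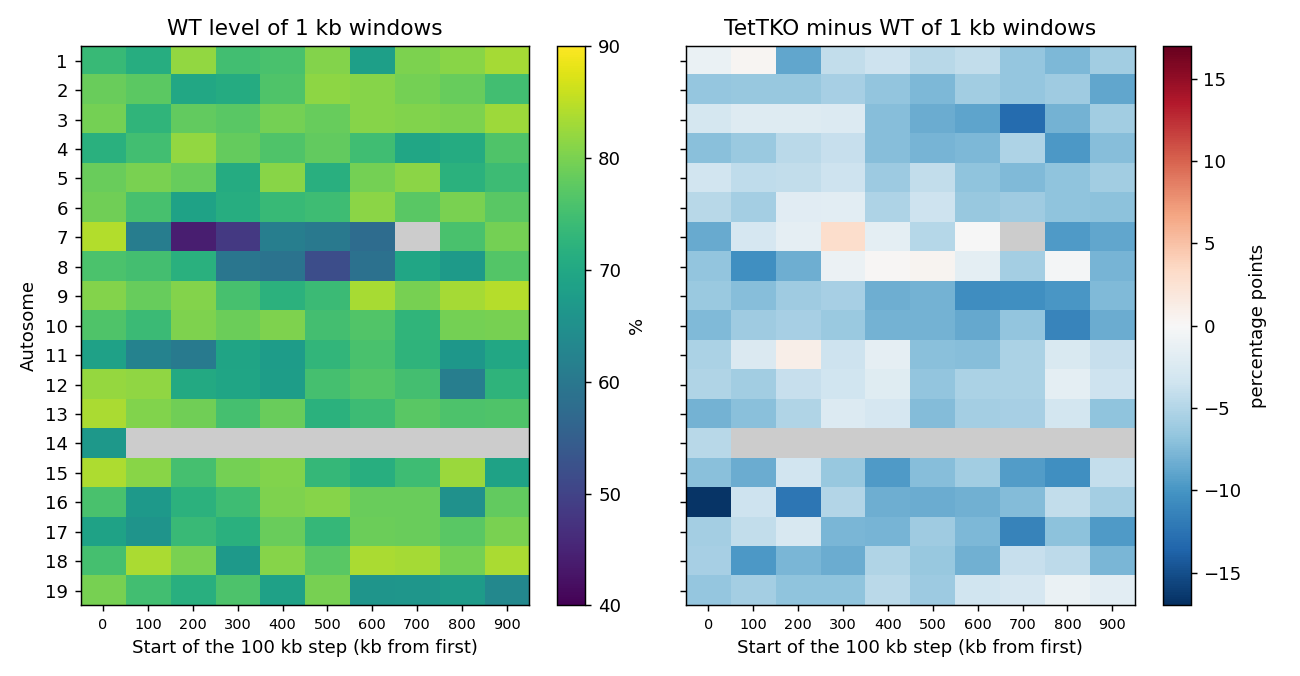
WT methylation in percent (left) and TetTKO minus WT in percentage points (right) for each autosome (rows) and 100 kb step (columns, start of the step in kb); grey cells had fewer than 5 windows. Chromosomes 7 and 8 hold 10 of the 14 cells under 65% in WT, and 175 of 180 cells are below 0 on the right.

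Mean levels also differed with the FPKM of the underlying gene, in classes that differed in CpG number too. The first 1 Mb held 29 listed genes on chromosome 7, 26 on chromosome 8, 28 on chromosome 11 and 25 on chromosome 19. WT was at 68.5% on chromosome 11 and 70.8% on chromosome 19. Gene intervals took up 47.1% of the windows of chromosome 7, 62.0% of those of chromosome 8 and 65.4% of those of chromosome 5, where WT was at 76.3%. Windows in gene intervals of at least 10 FPKM (fragments scaled by transcript length and library size, as the mean of the libraries) had 65.7% in WT and 62.5% in TetTKO (1056 windows, -3.16 points), and windows in genes of 1 to 10 FPKM had 71.6% and 66.5% (1694 windows). Windows in genes under 1 FPKM had 74.2% and 68.4% (1524 windows, -5.79 points), and windows outside gene intervals had 75.9% and 70.0% (4538 windows, -5.91 points). Outside gene intervals, windows had 64.0% in WT on chromosome 7 and 67.7% on chromosome 8. Whether gene content bears on the low levels of these 2 ends was not tested.

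The mean difference was smaller, and then above 0, in windows with more CpGs. Windows of 5 to 6 CpGs went from 76.4% in WT to 69.2% in TetTKO (-7.18 points, 3175 windows), and those of 7 to 9 CpGs differed by -6.08 points (2812 windows). The difference shrank to -3.89 points at 10 to 14 CpGs (1938 windows) and -2.09 at 15 to 19 (492 windows). Windows of 20 to 29 CpGs had 53.7% and 55.1%, a mean difference of 1.47 points (242 windows, SD 3.55 over chromosomes), but the median was -0.03 and 50% of them were lower in TetTKO. Those of 30 or more had 5.51% and 8.65%, a difference of 3.13 points (153 windows). In the rest of the autosomes the same 2 densest classes differed by 3.52 and 3.30 points. At the limit of the set, windows of exactly 5 CpGs differed by -7.62 points, and those of 4 CpGs, just outside it, by -8.36.

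The difference also varied with the WT level. Each window was classed by its odd-numbered CpGs and measured on its even-numbered ones. Neighbouring CpGs can lie on the same read, so the class and the WT value are not fully apart. Windows of more than 15 CpGs with 10 to 50% in WT went from 28.6% to 39.3% (10.7 points, 127 windows), and in the rest of the autosomes the same class gained 12.6 points. Windows under 10% with more than 15 CpGs went from 2.13% to 4.45% (2.32 points, 186 windows), beside 3.81 points in the rest. Windows over 80% with at most 15 CpGs went from 82.3% to 73.8% (-8.47 points, 4148 windows), beside -8.33 points in the rest. With that limit, the direction followed the WT level at both densities. Windows of at most 15 CpGs were 8.09 points higher where WT was under 10% (88 windows), beside 10.2 in the rest. At 10 to 50% they were 6.78 higher (543 windows), beside 7.88. Windows of more than 15 CpGs over 80% differed by -5.92 points (256 windows), beside -6.20. At 50 to 80%, windows of at most 15 CpGs differed by -4.90 points (3303 windows), beside -4.80 in the rest. Those of more than 15 CpGs differed by -1.42 points (161 windows), whereas in the rest the difference was 0.687.

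Windows that differed by at least 30 points were few, at about the same share as over the whole series. There were 53 higher in TetTKO, 0.601% of the set beside 0.673% of all windows of the series, and 48 lower, 0.545% beside 0.604%. Among the 395 windows of at least 20 CpGs, 7 were at least 30 points higher, beside 1.53% of all autosomal windows of that density, and 0 were as much lower, beside 0.0289%. The share of the gains, 7 of 395, is thus near that of the autosomes. A window of 5 CpGs at this depth rests on few read calls, so single sparse windows are imprecise.

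The 5 largest gains among windows of at least 20 CpGs were all to levels between 57.9% and 75.6%. The window chr5:3152000-3152999 (25 CpGs), 150889 bp from the nearest listed gene, had 21.8% in WT (exact 95% interval 16.1 to 28.4%, 188 read calls) and 57.9% in TetTKO (52.3 to 63.3%, 323 read calls). The window chr17:3044000-3044999 (40 CpGs) went from 38.0% to 73.2%. At chr6:3918000-3918999 (28 CpGs), over the start of Tfpi2 and holding the promoter printed above, the level went from 31.9% (26.8 to 37.3%) to 66.4% (59.8 to 72.5%). In each of these windows the intervals of the genotypes do not overlap, but the windows were picked for the size of their gain. The windows chr13:3477000-3477999 at 2810429I04Rik (36.3% to 68.8%) and chr12:3388000-3388999 in Kif3c (43.3% to 75.6%), a kinesin motor gene, completed the list.

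Losses among CpG-rich windows were smaller. The largest was at chr11:3001000-3001999 (28 CpGs), from 86.9% (83.9 to 89.4%) to 69.5% (66.1 to 72.8%). It was followed by chr11:3403000-3403999 in Inpp5j (89.9% to 73.0%), chr12:3524000-3524999 (81.3% to 67.8%), chr4:3606000-3606999 in Lyn (48.8% to 35.4%) and chr11:3654000-3654999 in Osbp2 (89.1% to 76.6%). Except at Lyn, these windows were above 80% in WT. The interval of the Lyn window was 39.9 to 57.8% in WT and 28.0 to 43.3% in TetTKO, so these overlap.

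Very deep windows were more frequent in the set than in the rest, mainly through chromosomes 9 and 11. Windows with more than 50 reads per CpG in both libraries numbered 112 in the set, 1.27% of it, and 214 in the rest, 0.0177%. Of the 112, chromosome 9 held 38 and chromosome 11 held 66. The ends held 34.4% of all such autosomal windows but 0.724% of all autosomal windows. The 112 deep windows held 61.8% of the read calls of the set in WT and 60.4% in TetTKO. The number of copies of the underlying sequence was not measured. Without these windows the mean difference was -5.41 points, and the methylated share of pooled reads was 67.0% in WT and 62.9% in TetTKO instead of 74.4% and 68.3%.

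Most of these windows formed a block on chromosome 9 and a block on chromosome 11. The chromosome 9 block comprised 38 windows in the first 39 kb, with 73.3 to 7813 reads per CpG in WT and 82.9 to 8069 in TetTKO. Its WT level was even, between 71.6% and 84.0%, and every one of the 38 windows was lower in TetTKO, where levels lay between 67.7% and 77.4%. The mean difference was -7.46 points (SD 1.35 over windows). Among the 214 windows of the rest above the same depth, 86.0% were lower in TetTKO, with a mean difference of -6.27 points. A loss in nearly all deep windows was thus not particular to this block. The deepest windows, at chr9:3024000-3024999, chr9:3000000-3000999 and chr9:3001000-3001999, went from 82.3% to 74.3%, from 79.98% to 72.5% and from 82.8% to 73.7%. Coverage was 1.07 times as high in TetTKO as in WT in this block, beside 1.15 times in the other centromere-proximal windows.

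CpGs in the chromosome 9 block repeated at a fixed spacing. Pairs of listed CpGs 234 bp apart were 21.01 times as frequent as the mean over distances, those 468 bp apart 13.3 times and those 702 bp apart 10.6 times. The major satellite of mouse pericentromeric heterochromatin is a tandem repeat with a unit of 234 bp. The sequence of these windows was not used here, so their identity as satellite DNA was not tested. In the chromosome 11 block the most frequent spacing, 65 bp, was 2.54 times the mean, with no ladder of multiples.

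The chromosome 11 block was more varied. Its 66 windows lay 27 to 99 kb from the first window, with 55.4 to 313 reads per CpG in WT, and overlapped Sfi1, which encodes a centrin-binding protein of the centrosome. WT levels ranged from 28.2% to 86.4% and TetTKO levels from 39.8% to 79.0%, with 56 windows lower and 10 higher in TetTKO. The mean went from 67.5% to 63.2%. The window chr11:3093000-3093999 (60 CpGs), chosen after its values were seen, covers an end of the Sfi1 interval and went from 28.4% (27.6 to 29.1%, 14769 read calls) to 60.5% (59.6 to 61.3%, 12281 read calls). Whether reads of several copies are merged there was not tested.

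**Figure D4:**
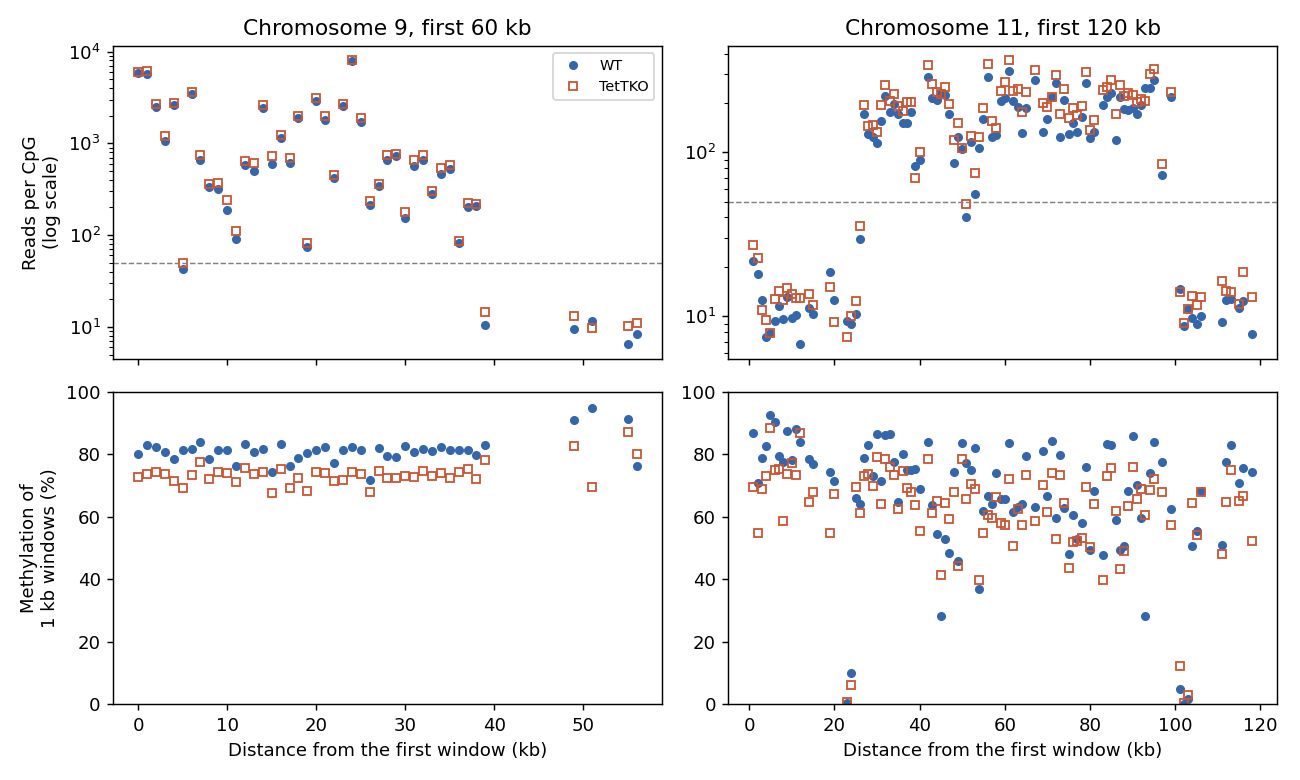
Reads per CpG on a log scale (top) and methylation in percent (bottom) of the 1 kb windows at the start of chromosomes 9 and 11, by distance from the first window in kb; the dashed line marks 50 reads per CpG. On chromosome 9 all 38 windows above the line are lower in TetTKO, while on chromosome 11 levels vary and 10 of 66 are higher.

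The 5 promoters shown above differed in how their single CpGs behaved. At Tfpi2, which encodes a serine protease inhibitor, 11 CpGs were listed in the 250 bases before and 50 after the start. The pooled level was 20.8% in WT (13.4 to 30.01%) and 56.4% in TetTKO (45.8 to 66.6%). Single CpGs ranged from 0 to 50% in WT and from 20% to 87.5% in TetTKO, and 10 of 11 were higher in TetTKO. Tfpi2 mRNA was 0.02 FPKM in both libraries.

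Tcirg1 encodes a subunit of a proton pump of osteoclasts. Its promoter went from 6.67% (2.92 to 12.7%, 120 read calls) to 32.1% (24.4 to 40.6%, 137 read calls). The gain lay upstream: the 4 CpGs from 223 to 131 bp before the start had 10% to 28.6% in WT and 60% to 78.6% in TetTKO. The 10 CpGs nearer to the start, or after it, were at 0 in WT and at 0 to 25% in TetTKO. Its mRNA had 3.29 FPKM in WT and 3.61 in TetTKO.

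Mefv encodes pyrin, an innate immune sensor, and was listed at 0 FPKM in both libraries. Its promoter, highly methylated in WT, went from 92.0% (80.8 to 97.8%, 50 read calls) to 64.9% (47.5 to 79.8%, 37 read calls), with all 5 listed CpGs lower in TetTKO. The Rps9 promoter, of a small ribosomal subunit protein, had 0.362% in WT (up to 2.00%) and 0 of 260 read calls in TetTKO (up to 1.41%). At D7Ertd143e all 14 CpGs were at 0 in both libraries (upper limits 2.82% and 1.98%), and FPKM was 96.9 in WT and 124 in TetTKO.

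**Figure D5:**
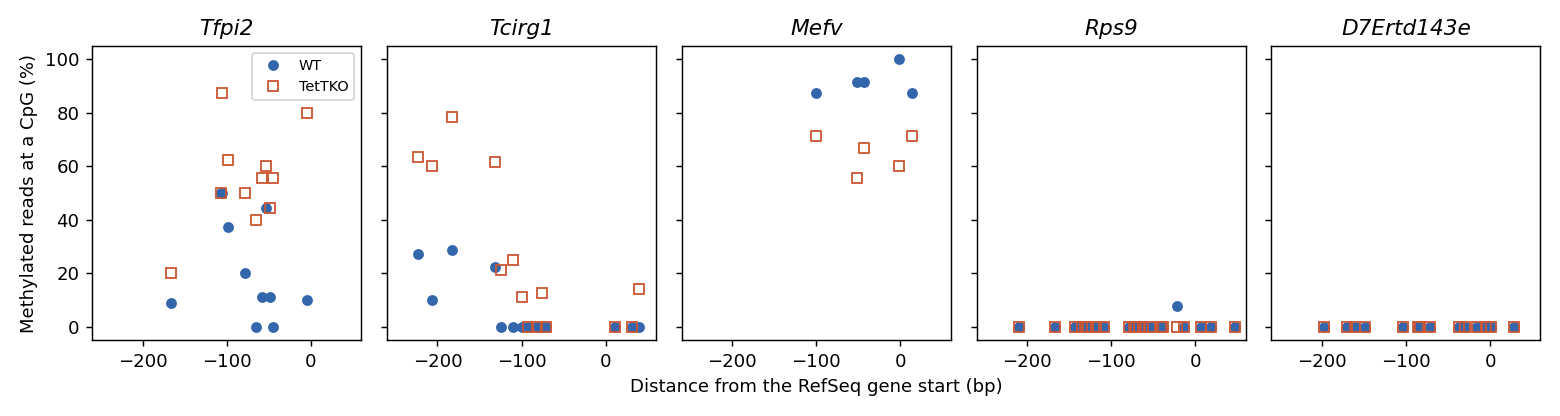
Methylated reads in percent at each listed CpG of 5 centromere-proximal promoters by distance from the RefSeq gene start in bp, with 5 to 20 reads per CpG and library. TetTKO lies above WT at 10 of 11 CpGs of Tfpi2 and in the upstream part of Tcirg1, below WT at all 5 CpGs of Mefv, and both are at or near 0 at Rps9 and D7Ertd143e.

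Most of the centromere-proximal promoters that could be matched had little methylation in both genotypes, as elsewhere. Of 223 genes listed in the first 1 Mb, 148 had a RefSeq promoter and 96 of those could be placed on mm9 by their pattern of CpGs. A match needed at least 5 listed CpGs, so CpG-poor promoters are left out. In WT 79 of the 96 were under 10% (82.3%, beside 87.3% of all matched promoters), and 71 were under 10% in both libraries (74.0%, beside 81.8%). At least 10 points higher in TetTKO were 15 promoters, 15.6% beside 8.51% of all 9317 matched promoters, and 4 were at least 10 points lower, 4.17% beside 2.00%. No test of these shares was made.

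The gains included 2810429I04Rik (32.6% to 64.9%), Pik3ip1, an inhibitor of PI3 kinase (18.3% to 44.8%), Aldh3b1, an aldehyde dehydrogenase (26.5% to 48.4%), and Fbxo4, an F-box protein (3.17% to 24.4%). Smaller gains were seen at Acy3 (25.9% to 46.2%), Asb13 (10.1% to 25.6%), Pomc, the precursor of corticotropin (22.3% to 37.3%), Dclre1c, the nuclease Artemis (5.06% to 19.6%), and Mtfp1, a mitochondrial fission protein (0% to 14.1%). The other 4 gains were at Leng1, Alkbh8, Sec14l2 and Ccdc152, between 10.4 and 12.5 points. The losses besides Mefv were at Ghr, the growth hormone receptor (39.7% to 27.4%), the glutathione transferase Gstp2 (42.9% to 31.0%) and Tarm1 (84.2% to 73.1%). The exact 95% intervals of the genotypes overlapped at these 3 promoters, and at 7 of the 15 with a gain (Acy3, Aldh3b1, Alkbh8, Ccdc152, Dclre1c, Leng1 and Pomc). Overlap was not counted over all matched promoters, so these counts have no background. Of the promoters with a gain, 10 belonged to genes of at least 1 FPKM, and the median log2 ratio of those genes was 0.08.

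Expression of the genes in these ends differed little between the libraries. Of 223 genes, 118 had at least 1 FPKM in either library, with a median log2((TetTKO + 1)/(WT + 1)) of 0.03, beside -0.01 over all 10984 genes of that level. Of these, 2 were at least 2-fold higher in TetTKO on that scale (background 1.77%), and 0 were 2-fold lower (background 0.847%). Cd209c, a C-type lectin with close paralogs that may share reads, had 2.20 FPKM in WT and 5.95 in TetTKO (log2 ratio 1.12). BC016423 had 6.87 and 15.9 FPKM (log2 ratio 1.10).

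Dnmt3a, a de novo DNA methyltransferase at chr12:3806980-3914443, came next with 14.7 FPKM in WT and 30.3 in TetTKO (log2 ratio 0.99). Ghr had 0.42 and 1.67 FPKM, the scaffold gene Cnksr3 had 2.41 and 5.25, and Gng11, a G protein gamma subunit, had 0.32 and 1.02. The Src-family kinase gene Lyn had 0.63 and 1.48 FPKM, and Insr, the insulin receptor, had 0.88 and 1.74. Apart from Cd209c, BC016423, Dnmt3a and Cnksr3, these genes were near the lower limit, where the pseudocount understates a change.

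The largest decreases were at BC021614 (4.13 FPKM in WT, 1.69 in TetTKO), Acbd7, an acyl-CoA binding protein (3.16 and 1.56), and Cpt1a, the carnitine palmitoyltransferase of mitochondria (5.79 and 3.24). 2900053A13Rik (17.3 and 11.2), Ccdc132 (48.1 and 31.9), Sfi1 (4.55 and 2.76), the tRNA splicing gene Tsen34 (70.3 and 47.8) and Nudt8 (18.4 and 12.4) followed. The log2 ratios of these 8 genes lay between -0.93 and -0.54. Of them, Ccdc132 lies on chromosome 6, where WGBS depth was higher in WT, as does Gng11, which was higher in TetTKO.

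The most abundant transcripts differed little. Rprl3, an RNase P RNA-like gene whose short length makes FPKM unreliable, had 17708 FPKM in WT and 18561 in TetTKO. The ribosomal protein genes Rps20 (3038 and 2619 FPKM) and Rps9 (2309 and 2062 FPKM) followed, then the GTPase gene Drg1 (199 and 160), Ndufa3 of respiratory complex I (160 and 181), the chaperone gene Hspa14 (173 and 127), Ndufv1 of complex I (157 and 136) and Gdi2, a Rab regulator (109 and 145). For these 8 genes the log2 ratio lay between -0.45 and 0.42.

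Of 31 genes for pericentromeric heterochromatin and DNA methylation, wherever they lie in the genome, 30 had at least 1 FPKM, and 3 of the 31, Dnmt3a, Suv39h2 and Suv420h1, lie in the first 1 Mb of an autosome. On the scale with a pseudocount, Dnmt3b was the only one of the list at least 2-fold higher in TetTKO (66.9 FPKM in WT, 149 in TetTKO). Tet1 (15.1 and 4.36 FPKM) and Tet2 (14.9 and 4.13 FPKM), which are among the targeted genes, were the 2 that were 2-fold lower, and Tet3 was at 0.32 and 0.27. The median log2 ratio of the list was 0.04. Differences under 2-fold were seen at Cbx3, a heterochromatin protein (380 and 228), the glycosylase gene Mbd4 (10.04 and 5.82), the centromeric histone gene Cenpa (57.5 and 36.1) and Suv420h2 (14.9 and 9.40), all lower in TetTKO, and at Atrx, a chromatin remodeller (18.2 and 27.9), which was higher. Cbx3 and Mbd4 lie on chromosome 6, the only autosome whose centromere-proximal median window was deeper in WT, while Cenpa and Suv420h2 lie elsewhere. Whether that depth bears on their FPKM was not tested. The list also held Dnmt1, the maintenance methyltransferase (59.8 and 65.8 FPKM), and its partner Uhrf1, which was lower in TetTKO (109 and 71.8, log2 ratio -0.60). Suv39h1 (11.1 and 12.1) and Suv39h2 (13.8 and 14.5), which methylate histone H3 in heterochromatin, differed less. So did Cbx5, which is related to Cbx3 (68.4 and 69.6).

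All 9 ES cell markers were expressed in both libraries, but not at the same level. Pou5f1 had 1178 FPKM in WT and 1092 in TetTKO. Esrrb (49.3 and 26.4 FPKM), Nanog (116 and 71.0) and Zfp42 (698 and 513) were lower in TetTKO, and Sall4 (25.1 and 34.6) was higher. Of these, only Nanog lies on chromosome 6, where WGBS depth was higher in WT. None of the 9 reached a 2-fold difference.

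Several markers of other cell types were higher in TetTKO, and some were lower. All 5 primitive endoderm markers were higher, with a summed FPKM of 2.57 in WT and 8.98 in TetTKO. The sum of 4 trophoblast markers was 27.0 and 45.1, mostly from Krt8 (18.5 and 33.1) and Tfap2c (8.25 and 11.1). Cdx2 was at 0.27 and 0.92, and Elf5 at 0 and 0.02. Of 3 neuroectoderm markers, with sums of 5.40 and 9.66, Nes was higher (2.59 and 8.08) and Pax6 lower (2.63 and 1.32). The sum of 7 fibroblast or feeder markers, 129 and 147, was mostly Vim, which was slightly lower (117 and 109). Among these markers Acta2 (1.86 and 9.84) and Tagln (8.59 and 26.4) were higher, and Thy1 was lower (1.29 and 0.96). Col1a1 (0.07 and 0.19), Col1a2 (0.12 and 0.40) and Col3a1 (0.08 and 0.74) were higher in TetTKO but under 1 FPKM in both libraries. Their part in the differences above was not tested.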

How the data were processed

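The WGBS files deposited by the authors give a methylated fraction, a methylated read count and a total read count per CpG. The libraries share 14323377 listed CpGs, each with at least 5 reads. The submitters' processing notes name mm9, Trim Galore, Bismark 0.7.9, Bowtie and SAMtools, and TopHat2 2.0.2 and Cufflinks 2.0.2 for the RNA values, which the authors deposited as FPKM per gene with an interval but no strand. RNA depth is unknown from these files.

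Here the read counts were summed per 1 kb window, and the level was 100 times methylated over all reads. Genes overlapping the first 1 Mb were compared as log2((TetTKO + 1)/(WT + 1)) where either library had at least 1 FPKM. RefSeq promoters (GRCm38.p6) were placed on mm9 only by the spacing of their CpGs, within 2500 bp of a gene end, requiring at least 5 listed CpGs, all on a CpG of the sequence, and no rival place with more than 50% as many. Over the autosomes 9317 promoters matched, and 81 mirror images of the same patterns did. Of the 96 matches reported, 88 lay within 100 bp of an end of the gene interval.

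Named windows were the 5 largest gains and losses with at least 20 CpGs and the 3 deepest. Named genes were the 8 highest, the 8 lowest and the 8 most abundant. The windows, gene lists and rules were chosen with earlier results of these data known. With 1 library per group no test between the genotypes was made. The calculation of window calls was checked on simulated reads. Python 3.11.15, numpy 2.4.6, pandas 2.3.3, scipy 1.17.1 and matplotlib 3.10.9 were used. Alternatives covered the CpG minimum, span, depth, weights, grid, chromosomes, thresholds, pseudocount and FPKM minimum.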

Additional observations from a re-analysis of the deposited data

How the results depend on the processing

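No paired analysis was possible because each group has 1 library and no result comes from a test. The mean difference of centromere-proximal windows was below 0 under all 13 alternatives. The settings below are followed by the mean difference, the WT level, the TetTKO level, the difference minus that of the rest and the WT level minus that of the rest. Values are given where they moved by more than a width taken from the exact intervals of pooled read calls. Most of those calls lie in the deep windows, so this width may understate the counting error of a mean over windows. With at least 3 CpGs they were -6.36 points, 74.5%, no move in TetTKO or in the difference from the rest, and -0.354 points. With at least 10 CpGs they were -2.74, 68.0%, 65.2%, -0.464 and -0.900. With CpGs of at least 10 reads in both libraries they were -4.02, 65.7%, 61.7%, -0.902 and -0.533. In the first 500 kb the difference was -4.99 and the WT level 73.2%, the comparison with the rest turned to 0.178, and the WT excess was -1.05. In the first 2 Mb they were -5.22, 73.2%, 68.0%, -0.0567 and -1.05. With read calls pooled they were -6.05, 74.4%, 68.3% and -2.36, and the WT excess turned to 6.42. With every chromosome equal they were -5.52, 74.1%, 68.6%, -0.362 and -0.122. With the grid shifted by 500 bp the difference was -5.53, the WT level 73.7%, and the comparisons with the rest -0.365 and -0.542. The mean of CpG fractions gave -5.31 and 68.3% in TetTKO. Without chromosome 6 the levels were 73.4% and 68.0%. Without chromosomes 7 and 8 they were -5.67, 74.9%, 69.2% and -0.452, and the WT excess turned to 0.506. That alternative and the removal of high-coverage windows were chosen after seeing the data. The small differences from the rest, in level and in loss, therefore have no fixed sign.

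The counts of windows 30 points higher and lower were 31 and 2 with at least 10 CpGs, 25 and 25 in the first 500 kb, 104 and 99 in the first 2 Mb, and 13 and 7 with CpGs of at least 10 reads. At 20 points they were 177 and 565 and at 40 points 9 and 4, and 223 windows were lower with at least 3 CpGs. Genes 2-fold higher numbered 7 with a pseudocount of 0.1 FPKM and 0 with 5 FPKM, and 1 gene was 2-fold lower with 0.1. For the spans of 500 kb and 2 Mb the background stays 0.673% higher and 0.604% lower of all windows. At the other CpG minimums, depth and points, shares over all windows were not counted. Shares over all genes were not counted at the other pseudocounts either. Those counts therefore have no background and are not read as traits of these ends. Stricter depth or CpG minimums keep fewer and denser windows by construction. At a median of 9 and 10.4 reads per CpG, single windows of few CpGs are imprecise. Without replicates, differences between cultures or clones cannot be told apart from the genotype.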

Other observations

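Windows with fewer CpGs, chosen after their values were seen, held larger single differences. At chr17:3616000-3616999 (6 CpGs) the level went from 11.9% of 59 read calls to 66.7% of 33, and at chr7:3637000-3637999 (10 CpGs), in Mboat7, from 8% of 75 to 50.8% of 63. The largest losses were at chr17:3592000-3592999 (5 CpGs), from 86.5% of 37 read calls to 36.4% of 33, and at chr19:3595000-3595999 (5 CpGs), in Lrp5, a Wnt co-receptor, from 97.6% of 41 to 47.5% of 59. Few reads lie behind each of these windows.

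A window of 92 listed CpGs, 102 kb from the first window of chromosome 11, had 0.125% in WT and 0.239% in TetTKO. It lies next to the high-coverage block at Sfi1 and had 8.70 and 9.11 reads per CpG. A high-coverage window of chromosome 6 with 49 CpGs had 5.17% in WT and 2.59% in TetTKO at 152 and 168 reads per CpG, so high depth at these ends was not always accompanied by high methylation.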
